A study of Mus musculus with 6 samples.

Results

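The genes described here code for 10 proteins of the cell surface and the surrounding matrix that carry sugar chains or make hyaluronan. Dcn, Lum, Bgn, Fmod and Ogn encode the small leucine-rich proteoglycans decorin, lumican, biglycan, fibromodulin and osteoglycin. Vcan and Acan encode versican and aggrecan, large proteoglycans that bind hyaluronan, Has1 and Has2 encode hyaluronan synthases, and Cspg4 encodes the membrane proteoglycan NG2. Has1, Has2 and Cspg4 are thus neither small leucine-rich proteins nor hyaluronan binders of the versican type. Every probe set whose only gene symbol in the platform annotation was that of a member was taken, under the current symbol or a synonym. This gave 147 of the 318760 measured probe sets with 1 gene symbol, and no probe set that listed several symbols included a member.

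The cells were OP9, a mouse stromal line derived from the skull bone of newborn mice that lack a functional Csf1 gene and used to support blood cell precursors in culture. Both groups carried a stably integrated pLKO.1-puro lentiviral hairpin. In 3 samples (control shRNA) the hairpin was a scrambled sequence, and in the other 3 (Smo shRNA) it targeted Smoothened (Smo), the membrane protein through which Hedgehog ligands signal. Total RNA of each sample was hybridized to an Affymetrix Mouse Exon 1.0 ST array, which measures a gene through several exon probe sets, and all levels below are log2 values. Whether the 3 samples of a group came from separate cultures or transductions is not in the labels. The p-values therefore cover only the spread among the 3 RNA samples of each group, which may come from 1 stable line and differ only technically. A difference of another origin between the cells of the 2 groups cannot be told apart from that of the hairpin. In such bulk RNA, fewer cells of a type and less RNA per cell cannot be told apart either.

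Small leucine-rich proteoglycans coat collagen fibrils and set their thickness and spacing, and several of them bind growth factors such as TGF-beta. Decorin and biglycan carry chondroitin or dermatan sulfate chains, while lumican, fibromodulin and osteoglycin can carry keratan sulfate. Versican and aggrecan attach to hyaluronan, a sugar polymer that the synthases extrude through the plasma membrane, and so form swollen, water-rich matrix. NG2 is known as a surface proteoglycan of pericytes and of immature mesenchymal and glial cells.

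The targeted gene Smo fell 1.83-fold, from 12.25 ± 0.04 (SD, n = 3) to 11.38 ± 0.07 (SD, n = 3) (limma adjusted p = 2.79e-10). Arrays of the same group correlated at 0.996 to 0.998 and arrays of different groups at 0.978 to 0.981, both over 16791 tested genes, which do not replicate each other. Of 15 mesenchymal stromal markers, 10 fell and 1 rose, against 17.5% and 21.4% of all tested genes. The summed log2 level of these markers ran from 175.2 to 175.8 in control arrays and from 172.5 to 173.4 in Smo shRNA arrays. None of 11 hematopoietic and none of 9 endothelial markers passed (limma adjusted p; 0 in either list at an unadjusted p under 0.05). Their levels ran from 7.20 to 8.78. Of 11 chondrocyte markers, Col2a1 and Sox9 fell and none rose (0 higher at an unadjusted p under 0.05). This share of lower genes was near the 17.5% of all tested genes, and the median difference of the 11 markers was -0.02.

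Among the members, Ogn, Vcan and Cspg4 fell in Smo shRNA cells and Has2 rose. Ogn fell most, by 0.60 on the log2 scale, while the other 3 changed by 0.17 to 0.31. Bgn, Fmod, Acan, Has1 and Dcn did not pass the threshold, an adjusted p of 0.05 over all tested genes. Lum had no probe set above the filter on dim values, set at the median level of all measured probe sets (6.61), and was not tested there. The filter kept 113 of the 147 probe sets, and 9 of the 10 genes had the 3 or more kept probe sets needed for a gene value. The 4 called of 9 tested members compare with 38.9% of all tested genes called, and 1 higher and 3 lower with 21.4% and 17.5%. The median difference was -0.07 over the members and 0.01 over all tested genes.

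**Figure D1:**
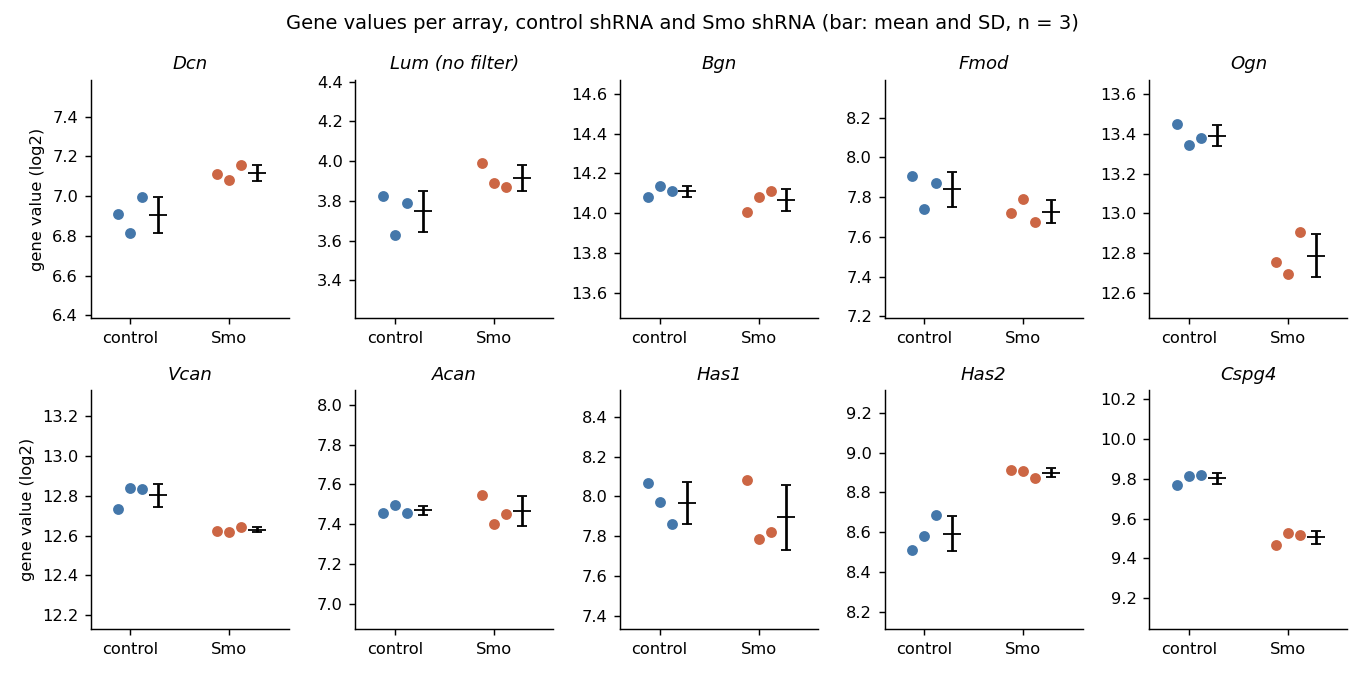
Gene values (log2) of the 10 genes on each of the 3 control shRNA and 3 Smo shRNA arrays, with the mean and SD of each group beside the points; every panel spans the same range of log2 units, and Lum is shown without the filter on dim probe sets. The groups stand apart for Ogn, Vcan, Has2 and Cspg4, and also for Dcn and Lum, whose differences did not pass.

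Ogn codes for osteoglycin, also called mimecan, a small leucine-rich protein of bone and connective tissue. Its gene value was 13.45, 13.34 and 13.38 in the control arrays and 12.75, 12.70 and 12.91 in the Smo shRNA arrays. Every Smo shRNA array lay below every control array, as was the case in one direction or the other for 47.6% of all tested genes. The difference was -0.60 (SE 0.04, limma adjusted p = 2.82e-08), or 1.52-fold. All 9 Ogn probe sets were kept and all 9 passed on their own as lower, compared with 12.5% of all kept probe sets. Their differences ran from -0.99 to -0.36.

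Ogn is the last of a row of 4 genes for small leucine-rich proteins on chromosome 13, in the order Ecm2, Aspn, Omd and Ogn in the mouse RefSeq gene table of GRCm38.p6. The other 3 also fell, and by more, but the sizes were not tested against each other. The part of brightness was not tested either, with 5 Ogn probe sets at a mean level of 13 or more. Aspn, for asporin, a relative of decorin and biglycan, was 9.65, 9.36 and 9.67 in control arrays and 7.46, 7.57 and 7.85 in Smo shRNA arrays, a difference of -1.93 (SE 0.10, limma adjusted p = 1.08e-09). Ecm2, for an extracellular matrix protein with leucine-rich repeats, was 9.26, 8.86 and 9.39 against 7.59, 7.66 and 7.78, a difference of -1.49 (SE 0.11). Omd, for the keratan sulfate proteoglycan osteomodulin of mineralized tissue, was 10.90, 10.56 and 10.79 against 9.47, 9.31 and 9.71, a difference of -1.25 (SE 0.09). In all 4 genes the groups did not overlap. Control replicate 2 was the lowest control array in each, and Smo shRNA replicate 3 the highest Smo shRNA array. This order of arrays also held in Cenpp, Ippk and Nol8 nearby, which did not pass, so it is not particular to the row. Its share over all genes was not counted.

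The genes on either side, chosen after their values were seen, were mixed. Cenpp, a centromere protein gene, spans the position of Ogn in the RefSeq table and did not pass (0.15, interval at 95% from -0.01 to 0.30). Ippk, on the far side of Cenpp, had a difference of 0.10 and Nol8, next after Ogn, of 0.13, and neither passed. Iars, an isoleucyl-tRNA synthetase gene and the second after Ogn, rose by 0.29, while Bicd2, the sixth before it, fell by 0.52. The differences between these genes and the 4 of the row were not tested against each other.

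**Figure D2:**
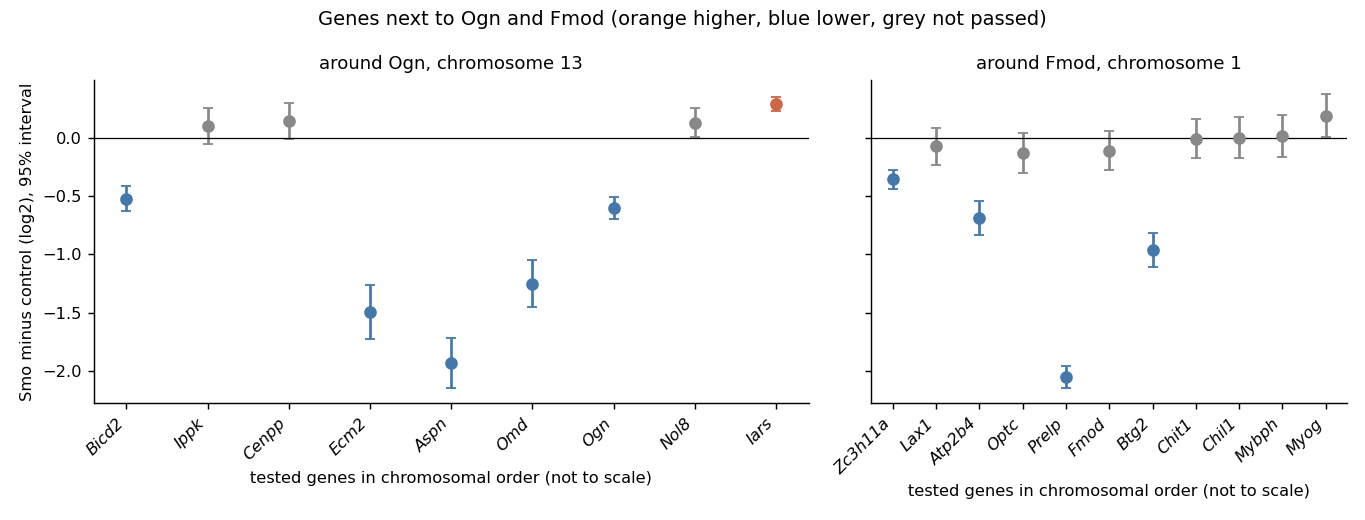
Difference between Smo shRNA and control shRNA arrays (log2, points) with its 95% interval for the tested protein-coding genes up to 6 places before and after Ogn (left) and Fmod (right), in chromosomal order. Ecm2, Aspn, Omd and Ogn lie between -1.93 and -0.60 beside Cenpp and Nol8 near 0, and Prelp lies at -2.05 next to Fmod at -0.11.

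The promoters of the 4 genes in the row are shown because these genes fell together. Each line gives the 250 bases before the RefSeq start, on the plus strand of GRCm38.p6. Capitals mark every match, on either strand, to 6 short motifs. Those of general promoters were TATAAA, the TATA box, and GGGCGG, the GC box. Those of factor families were TGANTCA for AP-1, TGTGGT for RUNX and CATTCC for TEAD. The last, GACCACCCA, is the site of the GLI proteins, the transcription factors of the Hedgehog pathway.
Ecm2 promoter, chr13:49504560-49504809, plus strand: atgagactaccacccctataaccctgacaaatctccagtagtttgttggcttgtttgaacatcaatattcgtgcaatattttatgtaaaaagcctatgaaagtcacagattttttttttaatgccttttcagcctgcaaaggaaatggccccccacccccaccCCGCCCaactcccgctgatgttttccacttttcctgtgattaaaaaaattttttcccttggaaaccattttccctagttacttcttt
Aspn promoter, chr13:49544193-49544442, plus strand: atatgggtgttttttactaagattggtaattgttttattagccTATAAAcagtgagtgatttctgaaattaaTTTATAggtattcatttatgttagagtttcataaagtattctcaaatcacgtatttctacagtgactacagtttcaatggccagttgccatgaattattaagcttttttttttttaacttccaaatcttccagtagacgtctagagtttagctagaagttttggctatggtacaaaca
Omd promoter, chr13:49582212-49582461, plus strand: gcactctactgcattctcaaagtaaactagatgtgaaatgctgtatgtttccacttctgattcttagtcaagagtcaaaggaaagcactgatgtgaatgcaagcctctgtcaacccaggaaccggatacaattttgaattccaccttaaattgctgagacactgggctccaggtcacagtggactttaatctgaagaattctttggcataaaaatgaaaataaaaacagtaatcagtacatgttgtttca
Ogn promoter, chr13:49607765-49608014, plus strand: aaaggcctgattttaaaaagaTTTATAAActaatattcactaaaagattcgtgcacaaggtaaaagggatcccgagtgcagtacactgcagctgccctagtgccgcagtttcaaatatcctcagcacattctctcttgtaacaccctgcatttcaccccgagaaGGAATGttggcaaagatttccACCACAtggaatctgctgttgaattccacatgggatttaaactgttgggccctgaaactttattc

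The capitals in the Ogn window are a pair of overlapping TATAAA matches on opposite strands, the reverse complement of CATTCC and that of TGTGGT. Aspn has 2 TATAAA matches, Ecm2 has a GC box and Omd has no match to any of the 6. TATAAA was found in 12.4% of 32851 RefSeq promoter windows of the same length, GGGCGG in 32.7%, TGTGGT in 14.0%, CATTCC in 12.6% and TGANTCA in 6.75%. The GLI letters were found in 0.225% of the windows and in none of these 4. Of the 10 members, 7 matched the promoter table, and no match to the GLI letters was found in those either. A match is only a match of letters and was not tested as a binding site.

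Dcn and Lum stand next to each other on chromosome 10, in the order Dcn, Lum, Kera and Epyc, and gave low values. Decorin is the best known collagen-binding small proteoglycan of fibroblasts. Of 19 Dcn probe sets 9 were kept, and the mean levels of all 19 ran from 3.73 to 8.50. The Dcn gene value was 6.91, 6.81 and 6.995 in control arrays and 7.11, 7.08 and 7.16 in Smo shRNA arrays. The groups did not overlap, but the difference of 0.21 (SE 0.09, 95% interval 0.03 to 0.40) did not pass (limma adjusted p = 0.0658). None of the 9 kept probe sets passed on its own (2 at an unadjusted p under 0.05), and 17 of the 19 had a positive difference. When all measured probe sets were tested together, 1 Dcn probe set passed as higher, compared with 12.9% of all measured probe sets as higher and 22.2% in either direction. Without the filter Dcn was called (0.24, adjusted p = 0.0298), as were 31.8% of all genes so tested and 17.3% as higher, and over its 16 alternatives the adjusted p ran from 0.0209 to 0.186 with the difference always positive.

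Lum, for lumican, had 5 probe sets with mean levels from 3.45 to 6.34, all below the filter. Without the filter its gene value was 3.83, 3.63 and 3.79 in control arrays and 3.99, 3.89 and 3.87 in Smo shRNA arrays. These values are far below the median of all measured probe sets, and the difference of 0.17 (95% interval -0.01 to 0.35, limma adjusted p = 0.161 over 20087 genes) did not pass. Kera and Epyc, for keratocan and epiphycan, also missed the filter, with unfiltered differences of -0.15 and 0.12 that did not pass.

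Bgn, for biglycan, did not pass as a gene, but its probe sets fell into separate ranges of level and difference. When each was set against the gene value, no departure passed (lowest limma adjusted p = 0.169), although the departures ran from -0.67 to 0.06. A departure that did not pass is not shown to be absent. The Bgn gene value was 14.08, 14.14 and 14.11 in control arrays and 14.01, 14.08 and 14.11 in Smo shRNA arrays, and the groups overlapped. The difference was -0.04 (SE 0.02, 95% interval -0.10 to 0.01, limma adjusted p = 0.189). The 11 probe sets with a mean level of 13 or more had differences from -0.14 to 0.02, and 1 of them passed as lower. The 4 dimmer ones, at mean levels from 8.49 to 10.09, had differences from -0.71 to -0.38, and all 4 passed as lower. Of all kept probe sets 12.5% passed as lower.

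The gene value of Bgn follows the bright probe sets. With those of 13 or more left out, a choice made after seeing the data, the difference was -0.60 (SE 0.14, limma adjusted p = 0.00258), and with the plain mean of all probe sets it was -0.18 (adjusted p = 0.00573). Over all 17 alternatives the adjusted p ran from 0.00258 to 0.545. The highest value in the table was 15.14, so the bright Bgn probe sets lie near the top of the scale, and the part of brightness in the small difference was not tested. For Ogn the 5 bright probe sets had a median difference of -0.55 and the other 4 of -0.68.

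Fmod, for fibromodulin, which binds collagen at a site it shares with lumican, did not pass. Its value was 7.91, 7.74 and 7.87 in control arrays and 7.72, 7.79 and 7.67 in Smo shRNA arrays, which overlap (difference -0.11, 95% interval -0.28 to 0.06, limma adjusted p = 0.313). The value rests on 3 of 5 probe sets, whose differences were 0.13 at a mean level of 10.53, -0.08 at 7.79 and -0.57 at 6.82. Prelp, the gene next to Fmod on chromosome 1 and likewise one for a small leucine-rich protein, was 4.14-fold lower (-2.05, SE 0.04, limma adjusted p = 1.05e-13). Optc, the opticin gene on the other side of Prelp, had a difference of -0.13 and did not pass. Btg2, an antiproliferative gene directly after Fmod, fell by 0.96.

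**Figure D3:**
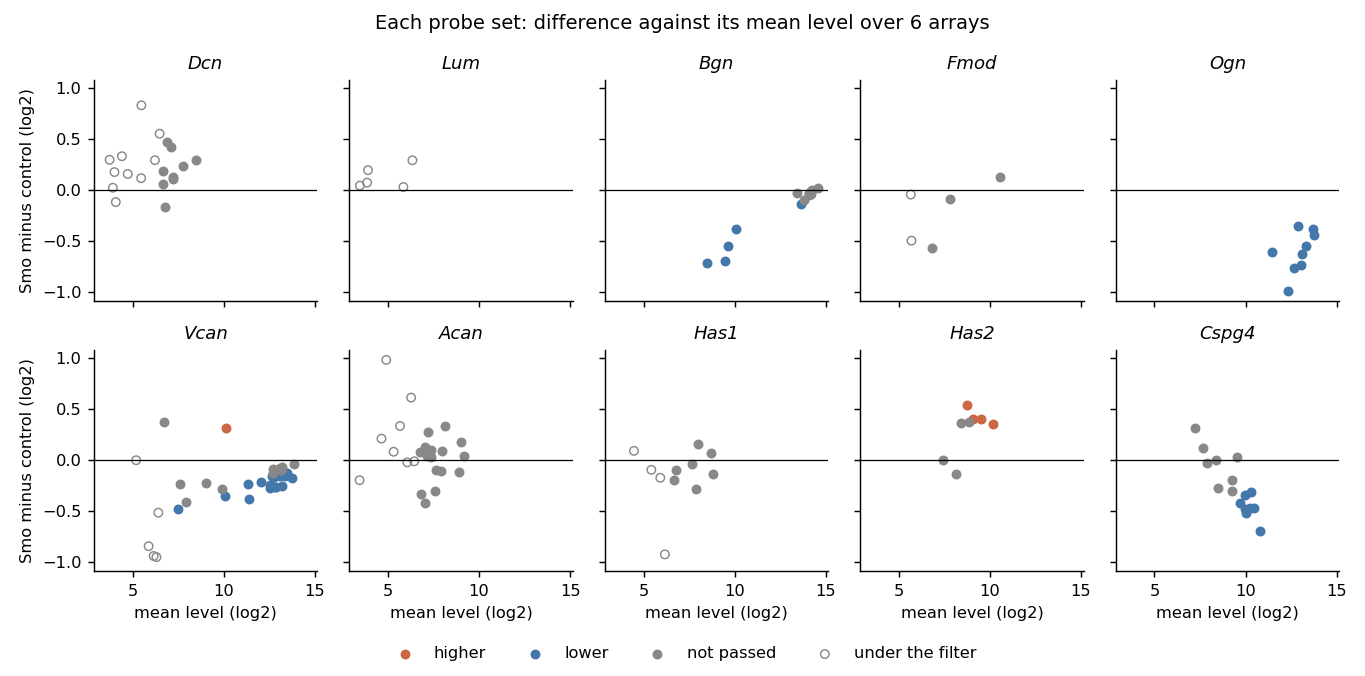
Each point is a probe set of a member, with its mean level over the 6 arrays (log2, horizontal) and its difference, Smo shRNA minus control shRNA (log2, vertical); filled points were kept, open points lie under the filter, and colours give the call. All 9 Ogn points are lower, the 4 Bgn points below level 13 lie under the 11 bright ones, and the 8 called Cspg4 points are its brightest.

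Vcan, for versican, fell by a small amount. Its gene value was 12.73, 12.84 and 12.83 in control arrays and 12.62, 12.62 and 12.64 in Smo shRNA arrays, without overlap. The difference was -0.17 (SE 0.03, limma adjusted p = 0.00033), or 1.13-fold, and it ran from -0.17 to -0.12 when each array was left out in turn, with the call kept. Of 30 kept probe sets 18 were lower and 1 higher, against 12.5% and 17.7% of all kept probe sets. The higher one had a mean level of 10.15 and a difference of 0.32 (adjusted p = 0.0222). The 11 probe sets of level 13 or more had a median difference of -0.12 and the 19 dimmer ones of -0.23. Versican is known in several splice forms, but the exon of each probe set was not used here.

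Acan, for the cartilage proteoglycan aggrecan, had a value of 7.46, 7.50 and 7.46 in control arrays and 7.55, 7.40 and 7.45 in Smo shRNA arrays. The difference was 0.00 (95% interval -0.17 to 0.16, limma adjusted p = 0.973), and its sign changed among the alternatives, the highest being 0.14 without the filter. None of its 16 kept probe sets passed (0 at an unadjusted p under 0.05). Among all measured probe sets 1 of Acan under the filter passed as higher (0.98, limma adjusted p = 0.0215), compared with 12.9% of all measured probe sets.

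The hyaluronan synthases differed in their calls, although the difference between them was not tested. Has2, the synthase on which embryonic mesenchyme depends, was 8.51, 8.58 and 8.69 in control arrays and 8.92, 8.91 and 8.87 in Smo shRNA arrays. All Smo shRNA arrays were above all control arrays, by 0.31 on average (SE 0.07, limma adjusted p = 0.00189), or 1.24-fold. Of its 8 probe sets 4 passed as higher, against 17.7% of all kept probe sets, and 7 had a positive difference. The 2 dimmest had differences of -0.13 and 0.00. The Has2 call was kept in 17 of 17 alternatives, with differences from 0.27 to 0.39. Has1 was 8.07, 7.97 and 7.86 against 8.08, 7.78 and 7.82, a difference of -0.07 (95% interval -0.27 to 0.12, limma adjusted p = 0.623), and none of its 7 kept probe sets passed (0 at an unadjusted p under 0.05). Among all measured probe sets 1 of Has1 under the filter, with a mean level of 6.17, passed as lower (-0.92, adjusted p = 0.0127), compared with 9.3% of all measured probe sets.

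Cspg4, for NG2, fell by 0.30 (SE 0.06, limma adjusted p = 0.000443), or 1.23-fold. Its value was 9.77, 9.82 and 9.82 in control arrays and 9.47, 9.53 and 9.52 in Smo shRNA arrays, again without overlap. Of 16 probe sets, the 8 brightest all passed as lower, with differences from -0.69 to -0.31, against 12.5% of all kept probe sets. None of the 8 dimmer ones passed, with differences from -0.30 to 0.32. Among 8 pericyte markers 3 rose, Mcam (1.30), Notch3 (0.51) and Des (0.44), and 2 fell, Rgs5 (-1.52) and Pdgfrb (-0.11). Of all tested genes 21.4% rose and 17.5% fell. The summed log2 level of the markers was 75.6 to 76.3 in control arrays and 76.4 to 76.8 in Smo shRNA arrays. This is a sum over genes that moved in both directions. The part of the markers in the Cspg4 result was not tested.

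Probe sets of a member were also set against the value of their own gene, to see whether any departed from it. None of the 113 kept probe sets passed in this test (limma adjusted p, with 21 at an unadjusted p under 0.05). Of all kept probe sets of tested genes 1.18% passed, 0.531% as higher and 0.646% as lower. The lowest adjusted p was 0.0695, for the brightest Cspg4 probe set. Over the members 45 of the 113 kept probe sets passed on their own, 39.8% against 30.2% of all kept probe sets, with 40 lower and 5 higher. Probe sets of a gene share its RNA and are not replicates, and the count was 29 without control replicate 2 and 29 without Smo shRNA replicate 2.

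The genes whose values over the 6 arrays were most like those of Ogn, by Euclidean distance after centring each gene, were Napepld (0.058), Borcs7 (0.074) and Fam102a (0.079). For Has2 they were Rsbn1 (0.046), Psat1 (0.068) and Lcor (0.070). With 2 groups of 3 arrays this measure mainly matches the size of the group difference.

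Against 17.5% of all tested genes that fell and 21.4% that rose, 6 of 10 other tested genes for small leucine-rich proteins fell and 1 rose. The remaining 3 did not pass, and the median difference of the 10 genes was -0.41. Besides Prelp, Aspn, Ecm2 and Omd, those that fell were Podn (-0.28), for podocan, and Podnl1 (-0.53), for its relative. The one that rose was Tsku, for the signalling modulator tsukushi (0.40). Beside these counts stand the 10 of 15 mesenchymal markers that fell, among them Col1a2 (-0.46) and Col3a1 (-0.25), collagens to which these proteoglycans bind. The part of a general change of matrix genes in the result was not tested.

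The counts of called genes around hyaluronan are read against 21.4% of all tested genes that rose and 17.5% that fell. Of 11 tested genes of hyaluronan synthesis and breakdown 5 fell and 3 rose, or 5 in all without control replicate 1 in place of 8. Cemip, needed for hyaluronan breakdown by fibroblasts, was 2.52-fold lower (-1.33, SE 0.08, limma adjusted p = 2.7e-09), and its relative Cemip2 fell by 0.48. The hyaluronidase genes moved in both directions, as Hyal1 fell by 0.37 and Hyal2 by 0.18, while Hyal3 rose by 0.29. Gfpt2, an enzyme at the start of amino sugar synthesis, rose by 0.75, while Ugdh, which makes the glucuronate donor, had a difference of -0.06 and did not pass. Of 19 other hyaluronan-binding and link proteins 4 rose and none fell (limma adjusted p; 0 lower at an unadjusted p under 0.05), a share of higher genes near that of all tested genes. Tnfaip6, which moves heavy chains onto hyaluronan, rose by 0.65 (SE 0.07, adjusted p = 1.27e-06), Hmmr by 0.19, Itih2 by 0.10 and Habp4 by 0.14. Cd44, the main hyaluronan receptor, had a difference of 0.10 and did not pass. The count of 4 was 2 without control replicate 1 or 2 and without Smo shRNA replicate 2 or 3, and without control replicate 3 it was 3 higher and 1 lower.

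Chondroitin and dermatan sulfate are the chains of decorin, biglycan, versican, aggrecan and NG2. Of 26 tested genes for the sugar linker on core proteins, for sulfate supply and for these chains, 10 fell, 2 rose and 14 did not pass. Over all tested genes 17.5% fell and 21.4% rose. The median difference of the 26 genes was -0.02. Linker and sulfate supply genes, such as Xylt1 and Papss2, are not particular to chondroitin and dermatan sulfate. Papss2, which makes the sulfate donor, fell by 0.66 (SE 0.04, limma adjusted p = 1.64e-08), while Papss1, which makes the same donor, rose by 0.24. The chain polymerizing factor Chpf2 fell by 0.64, the chondroitin sulfotransferase Chst12 by 0.55 and the chain-initiating xylosyltransferase Xylt1 by 0.45. Chpf, a relative of Chpf2, had a difference of 0.06 and did not pass. Leaving out 1 array gave 9 to 10 lower and 0 higher genes (the higher ones, Papss1 and Chst15, had adjusted p of 0.0178 and 0.0447).

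**Figure D4:**
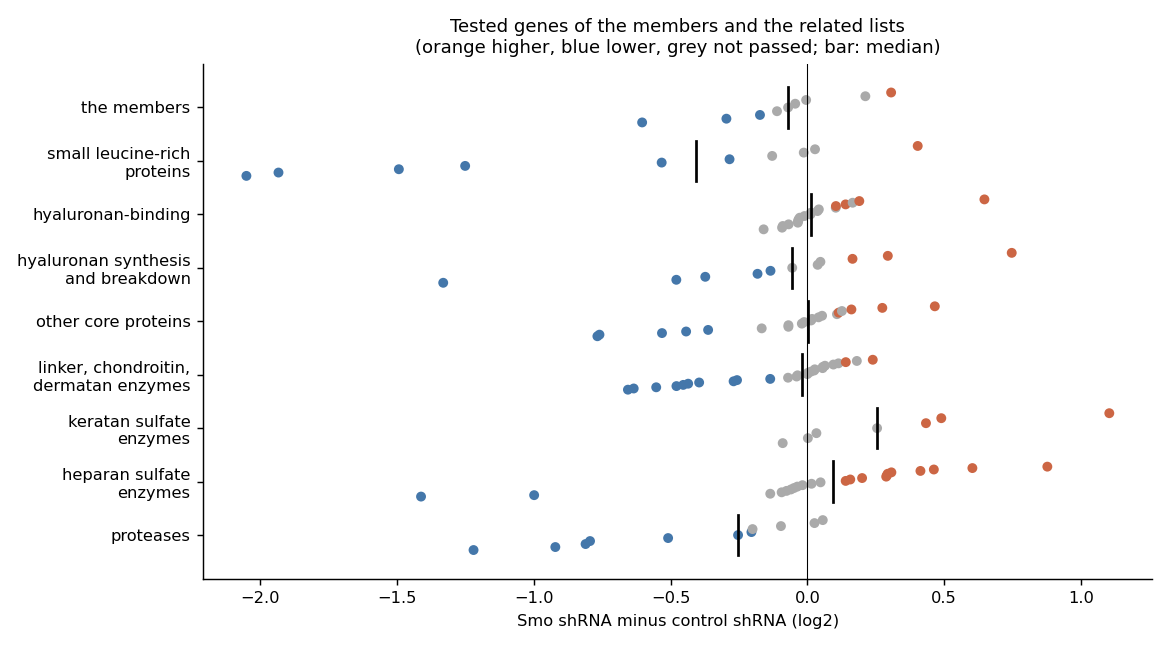
Difference between Smo shRNA and control shRNA arrays (log2) of each tested gene, one row for the members and one for each related list, with the median as a bar and colours for the call. The small leucine-rich proteins reach down to -2.05, with a median of -0.41, the members span -0.60 to 0.31, and the medians of the remaining rows lie between -0.25 and 0.25.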

How the data were processed

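The deposited table holds 1256831 probe sets on 6 arrays as log2 values made by the authors; the scale was read from the values. The authors' summary and normalization steps were not given in the sources used here. Array medians lay between 6.56 and 6.59, and 20744 probe sets (1.65%) that read 0 on all arrays were treated as not measured. Gene names came from the platform annotation, updated through the mouse RefSeq gene table of GRCm38.p6. Probe sets with 1 symbol and a mean at or above 6.61, the median of measured probe sets, were kept, and Tukey median polish gave a value per array to each gene with 3 or more. The test of Smo shRNA against control shRNA was that of limma 3.58.1 (R 4.3.3, variance trend, two-sided, Benjamini-Hochberg over all 16791 genes, or over all kept probe sets). Differences are Smo shRNA minus control shRNA, and folds understate changes of dim genes. No detection call was used, levels of different genes are not compared, and the number of arrays limits the precision.

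The members and gene lists were chosen with earlier results of these data known. Genes named are the members, Smo, up to 4 called genes per related list with the smallest adjusted p, the neighbours Omd, Aspn and Ecm2 of Ogn and Kera and Epyc of Dcn and Lum, and the 3 genes most like the 2 members with the largest difference (Ogn, Has2); others were named after their values were seen. Alternatives were other filters, gene summaries, priors, scalings, a replicate block and leaving out each array. The calculation was tested on simulated data.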

Additional observations from a re-analysis of the deposited data

How the results depend on the processing

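The calls of Ogn, Vcan, Has2 and Cspg4 kept their direction and side of the threshold in all 17 alternatives, as did those of Omd, Aspn, Ecm2 and Prelp. Dcn gained a call without the filter (0.24), with at least 5 probe sets, without the variance trend and with the replicate block (0.21 in each of these 3). Bgn gained one with the mean of probe sets (-0.18) and without bright probe sets (-0.60, added after seeing the data). Acan, not called, changed sign without the filter (0.14), with renewed quantile normalization (0.0042) and when arrays were left out (-0.0112 to 0.0351), and Has1 ran from -0.119 to 0.0173 over the same fits. Called probe sets of the members numbered 45, but 26 without the variance trend and 29 to 41 without 1 array. Called hyaluronan-binding genes numbered 2 without the variance trend and 2 to 4 without 1 array, and those of hyaluronan synthesis and breakdown 5 to 7 without 1 array. With the stricter filter 1 hematopoietic marker was called, as lower. Lum without the filter was not called in any of 7 alternatives. Dcn, Fmod and Has1 had too few probe sets for the stricter filter, and Fmod for the rule of at least 5.

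Whether equal replicate numbers in the titles share a culture or a day is not in the labels. Deviations of same-numbered arrays correlated at 0.08, 0.10 and 0.39 across genes. Control replicate 2 correlated more with Smo shRNA replicate 1 (0.31), and the remaining unlike pairs ran from -0.36 to -0.001. With 3 arrays per group these values cannot decide whether the samples were paired. The replicate block left 49 called probe sets of the members in place of 45. Dim values limit Dcn, Lum, Fmod, Acan and Has1, and values near the top of the scale limit Bgn.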

Other observations

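Of 20 other tested core proteins that carry glycosaminoglycans, 5 fell and 4 rose, with a median difference of 0.00. These counts are near the background, since 38.9% of all tested genes were called, 21.4% higher and 17.5% lower. The syndecan genes Sdc2 (-0.53, SE 0.04, limma adjusted p = 5.08e-08) and Sdc3 (-0.44) and the glypican gene Gpc4 (-0.76) fell, while Sdc4 rose by 0.47 (SE 0.04, adjusted p = 1.49e-07). Syndecans and glypicans are heparan sulfate proteoglycans of the cell surface. Of 22 tested enzymes of heparan sulfate, 11 rose and 2 fell, or 7 to 9 and 2 to 3 without 1 array. Those that rose included Glce, which epimerizes glucuronate (0.88, SE 0.05, adjusted p = 4.77e-09), and Ndst1, which starts the sulfation of the chain (0.29). The 2 that fell were Sulf2, an extracellular enzyme that removes sulfate groups from heparan sulfate (-1.41, SE 0.04, adjusted p = 3.01e-12, 2.66-fold), and the sulfotransferase Hs6st2 (-0.999, SE 0.05). Their relatives Sulf1 (0.20) and Hs6st1 (0.31) were among those that rose, and Hs6st3 (-0.02) did not pass.

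The next counts are read against 21.4% of all tested genes that rose and 17.5% that fell. Of 7 tested enzymes of keratan sulfate, 3 rose and none fell (limma adjusted p; 0 lower at an unadjusted p under 0.05). Chst1, which sulfates galactose in keratan sulfate, was 2.15-fold higher (1.103, SE 0.05, adjusted p = 1.25e-10), and B4galt1 and B3gnt2, which extend such chains, rose by 0.43 and 0.49. The 4 that did not pass were Chst5 (0.25), B3gnt7 (-0.09), B4galt4 (0.03) and Chst2 (0.00). Of 11 tested proteases that cut large proteoglycans, 7 fell and none rose (limma adjusted p; 0 higher at an unadjusted p under 0.05), with the same counts in each fit that left out an array. Among them were the aggrecanase genes Adamts5 (-0.79), Adamts4 (-0.81) and Adamts9 (-0.92), each with an SE of 0.05 to 0.08, and the collagenase gene Mmp13 (-1.22, SE 0.11). Beside these stand Acan at 0.00 and Vcan at -0.17, the genes of large proteoglycans that such enzymes cut. These are RNA levels, and the cutting of the proteins was not measured.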
